A study of Mus musculus with 6 samples.

Results

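The genes described here encode the machinery that carries newly made proteins from the endoplasmic reticulum (ER) to the Golgi apparatus and retrieves escaped proteins to the ER. There are 41 of them among the 25904 genes of the count table, chosen by name for their known function. Earlier results of these data were known when they were chosen. They comprise p24 (Tmed) cargo receptors, the COPII and COPI coats, other cargo receptors, KDEL receptors, and the SNAREs and the tether of vesicle fusion. They were measured by RNA sequencing of polyadenylated RNA in livers of C57BL/6J mice, 3 libraries from Ptprd+/+ animals (wild type, WT) and 3 from Ptprd+/- animals (heterozygous, Het). Ptprd encodes a receptor-type protein tyrosine phosphatase, and the comparison asks what the loss of 1 functional copy goes with in the liver. The sources used here do not give the nature of the altered allele, nor the age, sex, diet and sampling time of the mice. The labels do not tie each library to its own animal, so the p-values measure the spread between these libraries.

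The liver secretes albumin, lipoproteins, clotting factors and complement, and all of this cargo leaves the ER through the same exit sites. There the GTPase SAR1, loaded by PREB (also called SEC12), recruits the inner coat SEC23-SEC24, which selects cargo, and the outer cage SEC13-SEC31, which shapes the vesicle. COPI vesicles, built under the control of ARF GTPases, return receptors and escaped ER residents, and SNARE proteins drive the fusion of vesicles with their target membrane.

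All 41 genes passed the filter on low counts. Together they took 0.407%, 0.411% and 0.379% of the counts in the WT livers and 0.384%, 0.435% and 0.413% in the Het livers, so these shares overlapped. Total counts ran from 37924266 to 72954187 per library. Ptprd itself measured 128, 127 and 132 CPM (read counts scaled to the effective library size) in the WT livers against 54.1, 78.1 and 63.4 CPM in the Het livers, so each library's level fitted its genotype label. Hepatocyte identity was checked with 8 markers, which summed to 131896 to 157704 CPM in WT and 157709 to 188593 CPM in Het. The summed level of 8 plasma and B cell markers, none of them at 0, was 43.2 to 76.5 CPM in WT and 23.5 to 38.6 CPM in Het. Neither marker sum overlapped between the genotypes, and their part in the results below was not tested. In bulk tissue, fewer cells of a type and less RNA per cell cannot be told apart. The sums for Kupffer, sinusoidal endothelial, stellate and bile duct markers overlapped, and 4 pancreatic acinar markers together reached at most 0.645 CPM. The clock gene Dbp stood at 129 and 122 CPM in Het 2 and Het 3 against 13.5 to 29.6 CPM in the other libraries. Another clock gene, Arntl, went the other way, at 2.41 and 1.92 CPM against 11.8 to 21.4 CPM. These Het livers thus also differ from the rest in time-of-day genes, whose part was not tested.

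The transport genes lay mostly a little higher in Het. Because the members were chosen with earlier results of these data known, their shares beside those of all tested genes are description only. Of the 41 members 31 had a positive log2 fold change (75.6%, against 49.2% of all 14606 tested genes), and the members' median was 0.10 against -0.004 over all tested genes. In 12 members (29.3%) every Het library exceeded every WT library, an order found in 7.15% of tested genes, and in 1 member (2.44%), Sar1b, they lay below, an order found in 6.72%. With edgeR's quasi-likelihood test 9 members (22%) were higher at an unadjusted p under 0.05, against 3.39% of tested genes, and 1 (2.44%) was lower, against 3.77%. After Benjamini-Hochberg adjustment over all genes edgeR called 0 members and 0 genes in all (0%), and limma-voom called none either. Ptprd, lower in every Het library, was thus not called by either of them. In simulated data both recovered few or no changes of the members' size, so their lack of calls says little about differences this small. DESeq2 called 66 of 12905 genes (0.511%), among them 1 member, Tmed3. In the simulated data DESeq2 also called 27 unchanged genes, against 8 for edgeR and 6 for limma-voom. The differences were small: log2 fold changes ran from -0.35 to 0.60. The members' median size without regard to sign was 0.15, close to the 0.15 of all tested genes. Without Het 3 the members with every Het library above every WT library were 21 (51.2%), where fewer libraries made that order more frequent among all tested genes too (12.8%). The 9 members higher at an unadjusted p under 0.05 were 10 without Het 3 and 6 without any one of the other libraries.

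**Figure D1:**
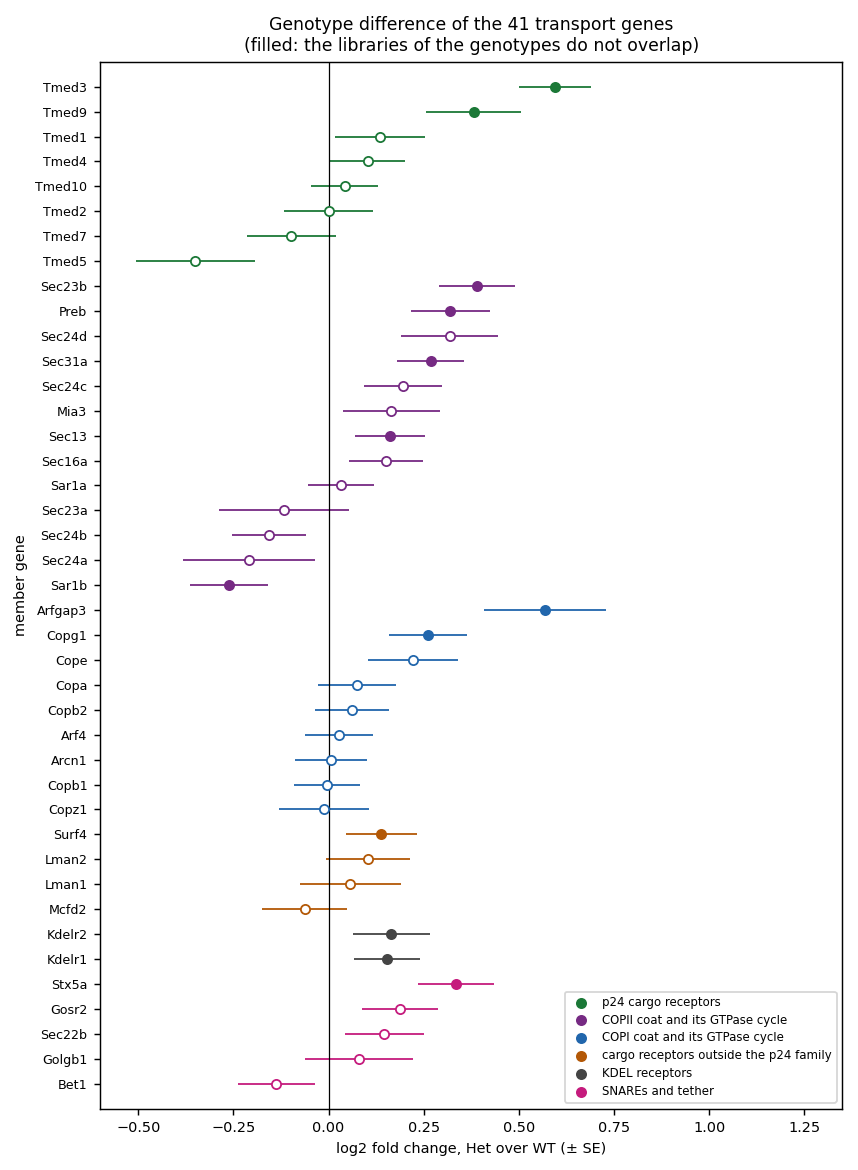
Log2 fold change (Het over WT, edgeR) of each of the 41 members on the horizontal axis, with its standard error as a bar, grouped by role. Filled points are members whose libraries did not overlap between genotypes; 12 of these lie to the right of 0 and Sar1b to the left.

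The promoters of these genes are described first, since many members are known targets of the ER stress transcription factors ATF6 and XBP1. The motifs, like the members, were chosen with earlier results of these data known, so their shares are description only. Promoter windows from RefSeq (GRCm38.p6, the build of the files), 250 bases before to 50 after a gene's start, were at hand for 35 members; they were not at hand for Arcn1, Tmed7, Tmed2, Kdelr2, Lman1 and Golgb1. The element TGACGTGG, a site that ATF6 is known to bind (the UPR element), was found on either strand in 5 of the 35 (14.3%), against 0.714% of all 27025 genes with a window and 1.01% of the 10776 tested ones. Its inner letters GACGTG, which every full element also holds, were found in 15 members (42.9%), against 7.15% of all and 10.4% of tested genes. The longer ER stress response elements ERSE and ERSE-II were found in 0 members and in 0.137% and 0.0444% of all genes. The cAMP response element TGACGTCA was found in 2, Cope and Gosr2 (5.71%, against 2.03% of all and 3.45% of tested genes). Its left part TGACGT, which every full UPR element also holds, was found in 14 members (40%), against 8.37% of all and 12.6% of tested genes. A higher share in the members was thus not particular to the letters of the UPR element. The median GC content was 57.8% in the members' windows, 60% in those of tested genes and 52.7% in those of all genes. Members' windows were thus not richer in G and C than those of tested genes, but were richer than those of all genes. The part of base composition in the motif shares was not tested.

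The full elements are shown with 8 bases on each side, turned to read TGACGTGG, to let their settings be compared; capitals mark the element, and positions count from the start of the gene, without a position 0.
Sec23a (chr12:59011996-59012019, minus strand, element at 7 to 14): ctccccttTGACGTGGcagaggcg
Sec24d (chr3:123267462-123267485, plus strand, element at -26 to -19): cgggcgccTGACGTGGcactagca
Copb1 (chr7:114254693-114254716, plus strand, element at -28 to -21): tccttggcTGACGTGGaagggggc
Copb2 (chr9:98563716-98563739, minus strand, element at -7 to 1): caacccacTGACGTGGaacttccg
Stx5a (chr19:8741425-8741448, minus strand, element at 10 to 17): taactcggTGACGTGGctgctgcg
Stx5a had a second full element at 40 to 47. Tmed3, the member with the smallest p, had the inner letters only, at -202 and at 32. The stretch around the first is shown 5′ to 3′ on the gene's strand with these letters in capitals.
Tmed3 (chr9:89705180-89705293, minus strand, -250 to -137): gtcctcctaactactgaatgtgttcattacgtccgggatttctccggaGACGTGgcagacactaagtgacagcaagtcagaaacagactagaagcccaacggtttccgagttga

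Log2 fold changes ran from -0.12 to 0.34 in the 5 members with the full element, from -0.01 to 0.60 in the 10 with only the inner letters and from -0.35 to 0.57 in the 20 with neither; the difference between these groups was not tested. The 5 members with a full element had a median log2 fold change of 0.06 and the 30 without it 0.14, and the 15 with the inner letters had 0.16 and the 20 without them 0.12. Sec24d and Stx5a, with a full element, lay among the higher members, while Copb1, Copb2 and Sec23a, with the same letters, had log2 fold changes of -0.004, 0.06 and -0.12. Every Het library exceeded every WT library in 4 of the 15 members with the inner letters and in 7 of the 20 without (7.15% of all tested genes). Tmed9, Sec23b, Preb, Sec31a and Arfgap3, none of which held the inner letters, were among the 7. A match of letters does not show that a factor binds there, and a missing match concerns this window only.

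**Figure D2:**
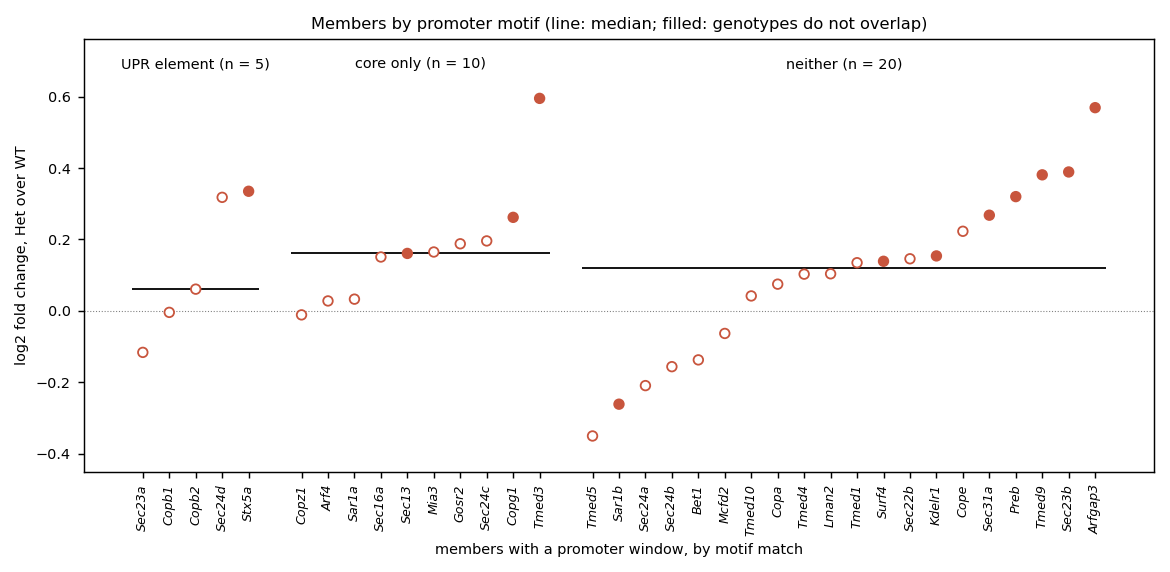
Log2 fold change (Het over WT) of the 35 members with a promoter window, split by whether the window held the full UPR element (5), only its inner letters (10) or neither (20). Lines mark medians and filled points members whose libraries did not overlap. The values run from -0.12 to 0.34, from -0.01 to 0.60 and from -0.35 to 0.57 in that order of groups.

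The p24 proteins are small membrane proteins that join into mixed complexes, ride in both coats and take up cargo such as GPI-anchored proteins. Of these 8 genes 2 were higher at an unadjusted p under 0.05 and 0 lower (3.39% and 3.77% of all tested genes). The median log2 fold change was 0.07. Tmed3 (ENSMUSG00000032353, chromosome 9 at 89699206 to 89705068, mm10) belongs to the gamma branch of the family. It stood at 14.5, 14.8 and 14.9 CPM in the WT livers and at 23.2, 20.7 and 22.8 CPM in the Het livers. The WT libraries lay within 1 CPM of each other and every Het library was well above them. The log2 fold change was 0.60 (SE 0.10, 1.51-fold), and its p ranked 9 among all 14606 genes. EdgeR's adjusted p was 0.298 and DESeq2's 0.00205. In the authors' deposited table, where 0.52% of genes with an adjusted p passed, its log2 fold change was 0.52 with an adjusted p of 0.00293, and Tmed3 was the only member under 0.05. For it, as for the other members with separated genotypes, the exact two-sided permutation p was 0.1, the smallest that 3 against 3 libraries allow. Its log2 fold change stayed between 0.56 and 0.66 in the 14 other settings tried.

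Tmed9, of the alpha branch, stood at 49.5, 56.4 and 55.7 CPM in the WT livers and at 80, 59.8 and 70.9 CPM in the Het livers. The groups did not overlap, but Het 2 lay only just above WT 2. Its log2 fold change was 0.38 (SE 0.12; edgeR adjusted p = 0.685), and it was 0.27 without Het 1. Tmed5, a gamma member like Tmed3, pointed the other way, with 66.9, 72 and 79.2 CPM in the WT livers against 44.4, 59.4 and 67.3 CPM in the Het livers. Het 3 overlapped the lowest WT library, and the log2 fold change was -0.35 (95% interval -0.71 to 0.01, edgeR adjusted p = 0.694). The opposite strand of Tmed5 carries Mtf2, whose exons share 395 bases with it and whose own log2 fold change was -0.35, and without a stated strand setting in the counting their reads may not be fully apart. Their relatives Tmed2, of the beta branch, and Tmed10, of the delta branch, had log2 fold changes of 0.001 (95% interval -0.27 to 0.27) and 0.04 (-0.16 to 0.24). Tmed1, Tmed4 and Tmed7 lay between -0.10 and 0.14, and Tmed10 has a named pseudogene copy that could take some of its reads.

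In the COPII group, 4 of 13 genes were higher at an unadjusted p under 0.05 and 1 was lower (3.39% and 3.77% of all tested genes). The median log2 fold change was 0.16. Sec23b, an inner coat subunit that activates the GTPase of SAR1, stood at 46.7, 41.4 and 39.5 CPM in the WT livers and at 57.5, 56.6 and 53.1 CPM in the Het livers. The Het libraries lay close together and all above WT 1, the highest WT library. The log2 fold change was 0.39 (SE 0.10, 1.31-fold; edgeR adjusted p = 0.636). Its paralogue Sec23a stood at 93.1, 81.4 and 83.1 CPM in the WT livers and at 59.9, 98.3 and 79.3 CPM in the Het livers. Het 1 was the lowest and Het 2 the highest of all 6 libraries, so the Het values spanned the WT range, and the 95% interval of the log2 fold change was -0.51 to 0.28.

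The cargo-binding SEC24 subunits also differed among themselves. Sec24d stood at 76.7, 61.4 and 61.9 CPM in the WT livers and at 80.3, 93.4 and 75.6 CPM in the Het livers, where Het 3 lay just below WT 1 (log2 fold change 0.32, SE 0.13; edgeR adjusted p = 0.694). Sec24c, of the same subfamily as Sec24d, had a log2 fold change of 0.20 (95% interval -0.04 to 0.43). Sec24a and Sec24b, which form the other subfamily, had -0.21 (-0.61 to 0.19) and -0.16 (-0.38 to 0.07). Sec24a repeated the library pattern of Sec23a, with 60 CPM in Het 1 and 97 CPM in Het 2.

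Both outer cage genes had separated genotypes, with every Het library above every WT library, an order found in 7.15% of all tested genes. Sec31a, which forms the rods of the cage, stood at 146, 141 and 140 CPM in the WT livers and at 168, 179 and 166 CPM in the Het livers. The gap between the highest WT and the lowest Het library was wider than the range within either genotype, and the log2 fold change was 0.27 (SE 0.09; edgeR adjusted p = 0.685). Sec13, which is also a part of the nuclear pore, stood at 55.8, 56.8 and 58.5 CPM in the WT livers and at 67.7, 64.3 and 59.2 CPM in the Het livers. Here Het 3 lay close to WT 3, and the log2 fold change was 0.16 (95% interval -0.05 to 0.37).

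The SAR1 genes and the genes that act with them at exit sites showed both directions. Preb, the exchange factor that loads SAR1 with GTP, stood at 91, 96.9 and 105 CPM in the WT livers and at 133, 115 and 118 CPM in the Het livers, which did not overlap (log2 fold change 0.32, SE 0.10; edgeR adjusted p = 0.685). Exons of Abhd1 share 1575 bases with Preb on the opposite strand. Abhd1 stood at 3.29 to 4.1 CPM with a log2 fold change of 0.00, and reads in the shared bases were not tested. Sar1b, the SAR1 form known for the export of large lipoproteins from gut and liver, stood at 187, 170 and 177 CPM in the WT livers and at 136, 161 and 148 CPM in the Het livers. Every Het library was under every WT library, with Het 2 nearest, and the log2 fold change was -0.26 (SE 0.10; edgeR adjusted p = 0.693). Its unadjusted edgeR p was under 0.05 with all libraries and without Het 2. It was above 0.05 when any of the other libraries was left out, without a filter on low counts, and with the replicate number as a block. Some higher members were also above 0.05 with a library left out. Copg1 was so without any library but Het 3, Sec24d without WT 2, WT 3, Het 1 or Het 2, and Sec31a without WT 2, WT 3 or Het 2. Tmed9 was so without WT 1 or Het 1, and Preb without WT 1. Tmed3, Sec23b, Arfgap3 and Stx5a stayed under 0.05 whichever library was left out. Sar1a had a log2 fold change of 0.03 (95% interval -0.16 to 0.23). Sec16a, the scaffold of ER exit sites, had 0.15 (-0.07 to 0.37). Mia3, which encodes TANGO1 and loads bulky cargo such as collagen, had 0.16 (-0.13 to 0.46), with 177 CPM in Het 3 against 128 to 137 CPM in the other libraries.

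**Figure D3:**
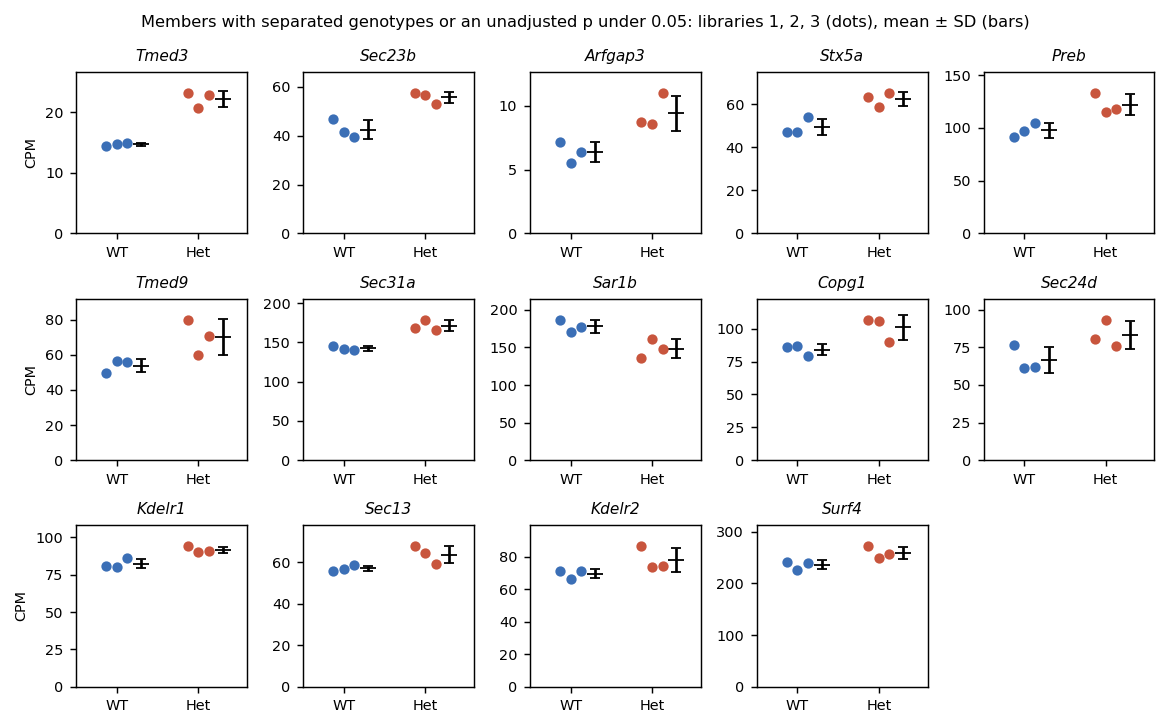
CPM (vertical axes from 0) of the 14 members with separated genotypes or an unadjusted p under 0.05, ordered by p. Dots are libraries 1, 2 and 3 of each genotype and bars the mean ± SD; Sar1b is the only one of the 14 lower in Het, and Sec24d the only one whose genotypes overlap.

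Because related members pointed in different directions, their ratios were taken within each library on the scale of CPM per kilobase of exon, where the scaling of the library cancels. These 7 ratios were chosen after the values were seen. The ratio of Sec23b to Sec23a ranged over 0.385, 0.39 and 0.365 in the WT livers against 0.737, 0.442 and 0.514 in the Het livers, so Het was higher in every library and more variable. The joint level of Sec24c and Sec24d over that of Sec24a and Sec24b was 2.44 ± 0.125 in WT and 3.33 ± 0.38 in Het (SD, n = 3), without overlap. Tmed3 over Tmed5 was 0.549 ± 0.0405 in WT and 1.09 ± 0.278 in Het, and Tmed3 over Tmed7 0.695 ± 0.0712 and 1.13 ± 0.163, again without overlap. Sar1b over Sar1a was 6.31 ± 0.295 in WT and 5.14 ± 0.384 in Het, also without overlap but downward. Tmed9 over Tmed4 overlapped (0.63 ± 0.0465 and 0.76 ± 0.0797), and so did Kdelr2 over Kdelr1 (0.865 ± 0.0347 and 0.87 ± 0.0595). For the 5 ratios without overlap the exact permutation p was 0.1, the smallest possible in this design, so none can pass 0.05.

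**Figure D4:**
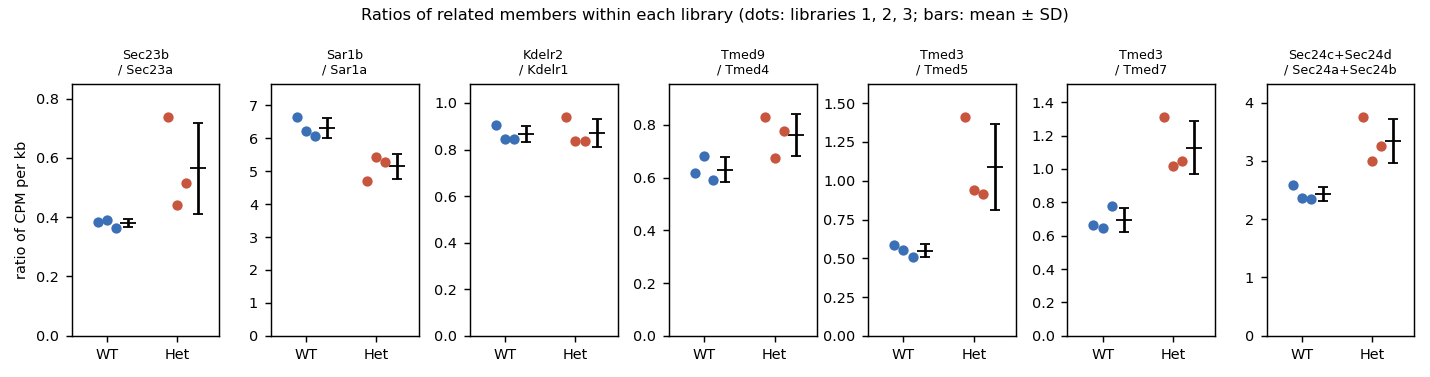
Ratio of CPM per kilobase between related members in each library (vertical axes from 0), with libraries 1, 2 and 3 as dots and the mean ± SD as bars. Of the 7 ratios 4 were higher in every Het library, Sar1b over Sar1a was lower in every one, and 2 overlapped.

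Of the 9 genes of the COPI coat and its GTPase cycle, 2 were higher at an unadjusted p under 0.05 and 0 lower. The shares of all tested genes were 3.39% and 3.77%. The median log2 fold change of the 9 was 0.06. Arfgap3, which triggers GTP hydrolysis by ARF so that the coat can come off, was the least abundant member per kilobase, at 7.16, 5.55 and 6.4 CPM in the WT livers against 8.72, 8.56 and 11 CPM in the Het livers. Every Het library exceeded every WT library, with Het 3 the highest (log2 fold change 0.57, SE 0.16, 1.48-fold; edgeR adjusted p = 0.649). Copg1, the gamma subunit of the coatomer, stood at 85.8, 87.2 and 79.5 CPM in the WT livers and at 107, 106 and 90.3 CPM in the Het livers, where Het 3 lay close to WT 2. Its log2 fold change was 0.26 (SE 0.10; edgeR adjusted p = 0.693), and 941 bases of its exons are shared with Gm26636 on the opposite strand. Among the other coatomer subunits Cope had 0.22 (95% interval -0.05 to 0.49). Copa, Copb1, Copb2, Copz1 and Arcn1 lay between -0.01 and 0.08, with intervals that together ran from -0.28 to 0.31. Arcn1 was the steadiest of these in WT, at 116, 116 and 117 CPM, with 109, 126 and 114 CPM in Het, so its Het libraries lay on both sides of WT. Arf4, a small GTPase of the Golgi, had 0.03 (-0.18 to 0.23).

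Both KDEL receptors, which bind the tail of escaped chaperones in the Golgi and hand them to COPI vesicles, had separated genotypes with small differences. Every Het library lay above every WT library, an order found in 7.15% of all tested genes. Neither receptor reached an unadjusted edgeR p under 0.05. Kdelr1 stood at 80.7, 80.4 and 86 CPM in the WT livers and at 94.1, 90.1 and 90.7 CPM in the Het livers, a log2 fold change of 0.15 (SE 0.09; edgeR adjusted p = 0.727). Kdelr2 stood at 71.3, 66.3 and 70.9 CPM in the WT livers and at 86.3, 73.5 and 74 CPM in the Het livers, where Het 1 stood apart and the others lay just above WT 1. Its log2 fold change was 0.16 (SE 0.10; edgeR adjusted p = 0.746), and it was 0.08 without Het 1. In a typical client of these receptors, the ER chaperone gene Hspa5, the values were 702, 591 and 632 CPM in the WT livers against 1128, 965 and 1336 CPM in the Het livers, which did not overlap.

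Of the cargo receptors outside the p24 family 0 of 4 had an unadjusted p under 0.05 (all tested genes: 3.39% higher, 3.77% lower). Surf4, a receptor for lipoproteins and other soluble cargo of hepatocytes, stood at 242, 227 and 240 CPM in the WT livers and at 272, 249 and 258 CPM in the Het livers. The genotypes were separated by the small gap between WT 1 and Het 2, and the log2 fold change was 0.14 (95% interval -0.08 to 0.35). Lman1 and Mcfd2, the partners that export clotting factors V and VIII, had 0.06 (-0.25 to 0.36) and -0.06 (-0.32 to 0.19), and the lectin Lman2 had 0.10 (-0.15 to 0.36). Lman1 ran from 181 CPM in Het 1 to 251 CPM in Het 2, on either side of the WT libraries at 196 to 218 CPM.

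The fusion step was represented by 4 SNAREs and the tether giantin. Of these 5 genes 1 was higher at an unadjusted p under 0.05 (3.39% of all tested genes). Stx5a, the Golgi syntaxin at the centre of the SNARE complex of this step, stood at 47.4, 47.2 and 54 CPM in the WT livers and at 63.3, 58.9 and 65.3 CPM in the Het livers. The lowest Het library lay above the highest WT library, and the log2 fold change was 0.34 (SE 0.10, 1.26-fold; edgeR adjusted p = 0.655). Its partners Gosr2, Sec22b and Bet1 had 0.19 (95% interval -0.04 to 0.42), 0.15 (-0.09 to 0.38) and -0.14 (-0.37 to 0.10). Golgb1, which encodes giantin, had 0.08 (-0.25 to 0.41).

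By library, the median of the members' log2 values centred on each gene's mean took the values -0.017, -0.077 and -0.066 for the WT livers in order of their numbers, against 0.042, 0.091 and 0.000 for the Het livers. Every Het library lay above every WT library on this scale, with Het 3 nearest to WT 1. The roles did not share 1 library order. The KDEL receptors were highest in Het 1 (0.172), the COPII group in Het 2 (0.169) and the p24 group in Het 3 (0.109). The fusion genes were low in Het 3 (-0.085), below WT 1 (0.021) and WT 2 (-0.079).

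**Figure D5:**
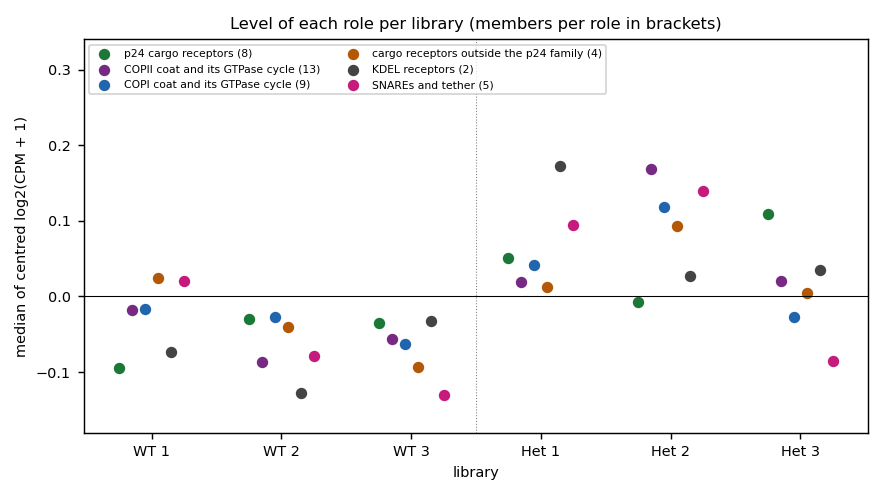
Median over the members of each role of log2(CPM + 1) centred on each gene's mean, per library. The WT libraries lie mostly below 0 and the Het libraries mostly above it, and the role that is highest differs between Het 1, Het 2 and Het 3.

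Levels per kilobase of exon differed widely among the members. Sar1b was the most abundant, with a mean of 130 CPM per kilobase over the 6 libraries, followed by Mcfd2 at 79.2, Surf4 at 75.6, Copz1 at 48.4, Kdelr1 at 46.4 and Kdelr2 at 40.3. At the low end stood Arfgap3 at 2.06, Sec24b at 3.4, Tmed3 at 6.49 and Tmed2 at 6.59. Tmed3 and Arfgap3, the members with the largest log2 fold changes, were thus among the least abundant. Exon lengths join all annotated transcripts of a gene, so a gene with many alternative ends appears lower on this scale.

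Other genes of the early secretory pathway were taken from a list of 67 that do not belong to the members, of which 62 were tested. This list too was chosen with earlier results of these data known. Of the 62, 4 (6.45%) were higher and 2 lower at an unadjusted p under 0.05, against 3.39% and 3.77% of all tested genes. In 9 (14.5%) every Het library lay above every WT library and in 3 below, against 7.15% and 6.72% of all tested genes. Both counts of lower genes thus fell under the share of all tested genes. A positive log2 fold change was found in 44 of the 62 (49.2% of all tested genes), and the median log2 fold change was 0.08. The count of 4 was 1 without WT 2 and 2 without Het 1. The higher ones were Uso1, the vesicle tether p115 (log2 fold change 0.23), and 3 transcription factor genes. Creb3l3, which encodes the hepatocyte membrane-bound factor CREBH, stood at 250, 317 and 341 CPM in the WT livers and at 431, 388 and 374 CPM in the Het livers, without overlap (log2 fold change 0.39; edgeR adjusted p = 0.685). Creb3 stood at 33.8, 32.1 and 36.8 CPM in the WT livers and at 45.7, 39.2 and 39 CPM in the Het livers (0.27; edgeR adjusted p = 0.693). Creb3l2, known to control COPII genes in secretory cells, stood at 27.5, 22.7 and 22.2 CPM in the WT livers and at 23.5, 38.3 and 41.9 CPM in the Het livers. It was high in Het 2 and Het 3 and within the WT range in Het 1 (log2 fold change 0.52, edgeR adjusted p = 0.694). Dbp and Arntl set the same Het libraries apart, and a link was not tested. The genes of the factors named with the promoters, Xbp1 and Atf6, did not reach an unadjusted p under 0.05. Xbp1 stood at 163, 212 and 239 CPM in the WT livers and at 283, 220 and 276 CPM in the Het livers, which overlapped (log2 fold change 0.34, edgeR adjusted p = 0.699). Atf6 also overlapped (0.17, edgeR adjusted p = 0.747). The lower ones, Trappc2 and Trappc8, are subunits of the TRAPP tether complexes and had log2 fold changes of -0.57 and -0.22. In both, every Het library was under every WT library.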

How the data were processed

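RNA was sequenced from strand-specific poly(A) libraries. The authors deposited raw read counts per Ensembl gene. The submitters' processing notes name STAR 2.5.3a, HTSeq 0.6.1p1, DESeq2 1.16.1, cutadapt 1.10, the build mm10 and bcl2fastq 2.17.1.14. The sources used here do not give the annotation release or the strand setting. The normalized columns were not used, because their decimal marks had been changed. The authors' deposited table of log2 fold changes and adjusted p-values, written WT over Het per the file headers, was turned to Het over WT.

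Genes passing filterByExpr (14606, with 99.955% of counts) were scaled by TMM and tested with edgeR 4.0.16 (R 4.3.3; quasi-likelihood, two-sided, genotype only, Benjamini-Hochberg over all genes, threshold 0.05). SEs come from the F statistic. DESeq2 1.42.0, limma-voom (limma 3.58.1), other scalings and filters, a replicate block and leaving out libraries were alternatives. The edgeR, limma-voom and DESeq2 fits were tested on simulated data. For changes of the members' size edgeR and limma-voom recovered few or none. DESeq2 recovered more of them but also called more unchanged genes. Exon lengths come from GENCODE M21. Every pair of libraries of a genotype differed by more than sampling noise. Described in full are members with an adjusted p under 0.05 (edgeR or DESeq2), an unadjusted edgeR p under 0.05 or separated genotypes. Of the wider list, those at an unadjusted p under 0.05 are described, with Xbp1 and Atf6 added. Members, lists and motifs were chosen with earlier results of these data known.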

Additional observations from a re-analysis of the deposited data

How the results depend on the processing

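The members' median log2 fold change was positive in all 14 other settings. The 14 members described in full kept their sign in all 196 values (14 members in 14 settings), and in 2 of these a member passed the adjusted threshold. All of these members but Sec24d were described for separated genotypes, which leaves little room for a change of sign, so the kept signs are no separate support. Both were Tmed3, called by DESeq2 (adjusted p 0.00205) and without a filter on low counts (0.0477); its adjusted p otherwise ran up to 0.801. Members called were 1 under DESeq2 and 1 without a filter, where all genes called were 66 and 73. Members lower at an unadjusted p under 0.05 were 2 under DESeq2 and 2 under limma-voom (4.88%, against 3.77% and 4.01% of all genes). The lower genes of the wider list were 1 without a filter and 1 with the replicate block. The block called 0 genes; numbers in the titles did not pair the libraries (r of the deviations -0.093, 0.172 and 0.199 for pairs 1, 2 and 3). Leaving out 1 library gave 0 to 1 genes called, 6 to 10 members higher and 0 to 2 lower at an unadjusted p under 0.05, 14 to 21 members above and 1 to 5 below without overlap, and 1 to 6 higher and 1 to 2 lower genes of the wider list. Counts without overlap can only grow or stay when libraries are left out under the same scaling, and both orders became more frequent among all tested genes too. In each setting without 1 library, the members' shares of higher genes, by p or by order, exceeded those of all tested genes. Their shares of lower genes, by p or by order, fell under those of all tested genes, also without Het 2, where 5 members lay below. These shares are description only. Without both Het 2 and Het 3, a setting chosen after seeing the data in which the lone Het library is assumed to vary like the others, 8 members were higher (19.5%, all genes 5.35%) and 4 lower (9.76%, all genes 8.34%) at an unadjusted p under 0.05, as was 1 lower gene of the wider list. There 23 members lay above (56.1%, all genes 31.2%) and 9 below (22%, all genes 31.9%), and Kdelr2 and Sec13 had log2 fold changes of 0.32 and 0.25.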

Other observations

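Some members varied more within Het than within WT. Sec24a and Sec23a had coefficients of variation of 25% and 24.3% in Het against 9.49% and 7.35% in WT, with Het 1 the lowest and Het 2 the highest of the Het libraries in both, and Tmed5 had 20.4% against 8.52%. Mia3 (16.7% against 3.5%) was instead set apart by Het 3. Sar1a had the lowest coefficient of the COPII genes in Het, 2.5%, and 3.33% in WT.

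Sec24a and Sar1b are neighbours on chromosome 11 that point away from each other. By the positions deposited with the counts, 52 bases lie between the upstream edge of Sec24a (minus strand) at 51763634 and the start of Sar1b at 51763687 (mm10). A RefSeq promoter window used above places a Sec24a start farther from Sar1b, since bases 51757015 to 51757020 lay upstream of it at -186. The spacing thus depends on the annotation. Both had a negative log2 fold change and their lowest level in Het 1. In Het 2 they parted, since Sec24a was at 97 CPM, above its highest WT library at 96.6 CPM, while Sar1b was at 161 CPM, below its lowest WT library at 170 CPM.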
